A study of Mus musculus with 6 samples.

Results

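The genes described here are the inhibitors of cyclin-dependent kinases of the CIP/KIP type (Cdkn1a and Cdkn1b) and of the INK4 type (Cdkn2a, Cdkn2b, Cdkn2c and Cdkn2d), the D cyclins (Ccnd1, Ccnd2 and Ccnd3) and Myc. They were chosen by name, as 10 of the 23462 named genes on the array, and all their probes were taken: 16 probes, with each of the 10 genes represented. Expression was measured in colon of male mice with 1 single-colour Agilent oligonucleotide array per mouse, in 3 control mice and 3 mice carrying an Islr knockout. The Islr protein is secreted, carries leucine-rich repeats and is best known from stromal cells. The sample source states that every mouse of both groups drank 3.5% dextran sulfate sodium (DSS), which injures the colonic epithelium, for 5 days and then recovered for 1 day, whereas a separate treatment field of the labels states that there was none. Strain, age and the way the allele was made (in the whole mouse or in one cell type) are not given in the sources used here. No group without DSS is among the samples, so every comparison is knockout against control after the same course. The design text speaks of colon samples that were flow separated and names no sorted population.

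D cyclins bind and activate CDK4 and CDK6, which phosphorylate the retinoblastoma protein and so release E2F factors that start DNA replication. The INK4 proteins (p16, p15, p18 and p19) block CDK4 and CDK6 alone, whereas the CIP/KIP proteins p21 and p27 mainly block the CDK2 complexes of later steps. MYC is a transcription factor of growth and division that raises D cyclin output and represses several of these inhibitors. In the colon, crypt cells near the base divide under Wnt signals with Myc and D cyclins on, and cells that leave the base stop dividing and mature as inhibitors accumulate.

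Values below are log2 signals relative to the 75th percentile of the array's probes, so 0 is that percentile, and a difference is knockout minus control on the log2 scale. At the targeted gene, the knockout mice read -1.40, -0.93 and -1.31 for Islr and the control mice 1.57 (an outlier spot, left out of the test), 1.24 and 1.21, a difference of -2.44 (SE 0.21, adjusted p 0.0171 in limma). Between 69.4% and 75.4% of spots were well above background on an array, and no spot was saturated. Outlier spots, which the scanner software marks for uneven pixels or deviating copies and which were treated as missing, accounted for 3.26% to 16.0% of spots per array and were most common on control replicate 1 and knockout replicate 1. Controls lay in one row of the slide and knockouts in the other, so position and genotype cannot be told apart. Markers of the labelled tissue were present: all 8 listed colon epithelium genes were well above background on all 6 arrays. So were all 6 smooth muscle genes, all 6 fibroblast genes and 5 of 6 neutrophil genes. In such bulk samples, fewer cells of a type and less RNA per cell cannot be told apart. Nothing in the labels says that the mice of a group came from separate litters or cages, so p-values measure the spread between these 6 samples.

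Of the 16 probes 13 could be tested, covering 9 of the 10 genes, and 0 of the 13 were called at a 5% false discovery rate in limma, where 3.97% of all 35351 tested probes were called, 1.55% higher and 2.42% lower in the knockout. An unadjusted p under 0.05 was reached by 5 of the 13, against 26.8% of all tested probes. The usable values of the groups did not overlap at 6 of the 13, 4 of them higher and 2 lower in the knockout, against 37.3% of all tested probes (18.2% higher and 19.2% lower). Of the 13 differences 7 were above 0 and 6 below, against 50% each over all probes. With outlier spots kept, 7 of 15 probes had an unadjusted p under 0.05 (27.3% of all probes) and 7 did not overlap (34.9%). The shares of probes with a low p or no overlap lie above the background, with few probes behind each and some genes counted at 2 probes. At 1 probe per gene, the usable values did not overlap at 4 of the 9 tested genes, near the 41.1% of all named genes tested. With 13 probes, 0 calls cannot be told from the 3.97% called over all probes. What follows therefore describes levels with their spread. By gene, the 4 tested genes with the largest differences upward were Cdkn2b, Ccnd1, Cdkn1a and Ccnd2, and the INK4 genes Cdkn2c and Cdkn2d had the largest differences downward; none of these passed the test. The other 3 probes were not tested: those of Cdkn1b and a second of Cdkn2b had too few usable spots, and a second probe of Cdkn2a was not well above background on any array.

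**Figure D1:**
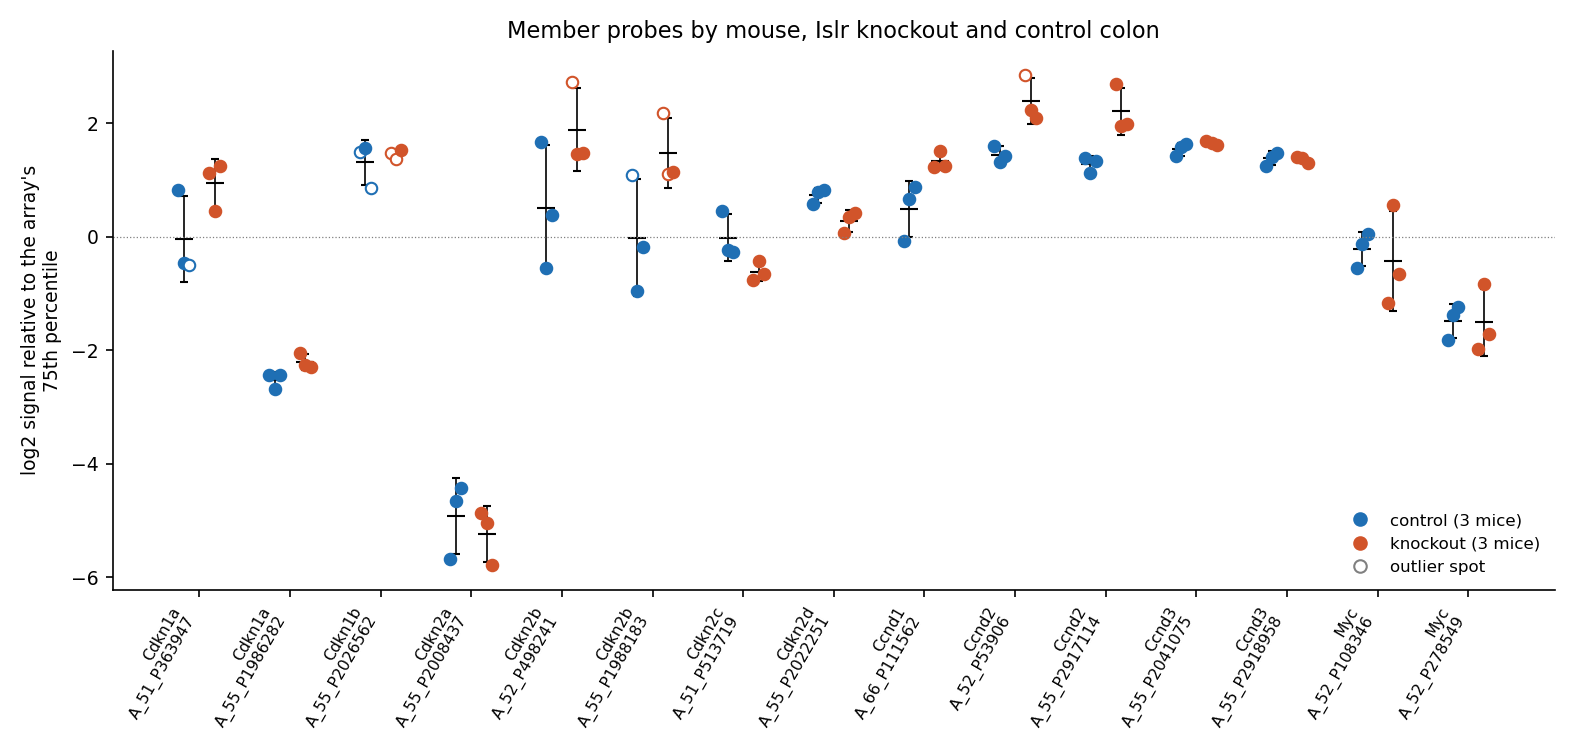
Log2 signal, with 0 at each array's 75th percentile (y axis), for the 15 member probes above background on at least 1 array (x axis), with 1 point per mouse, open points for outlier spots, and mean and SD over 3 mice as bars with outlier spots kept. The knockout points of Ccnd1, both Ccnd2 probes, Cdkn1a (A_55_P1986282) and Cdkn2b (A_55_P1988183) lie above all control points, and those of Cdkn2c and Cdkn2d lie below. Control replicate 1 (leftmost point) is the highest control for Cdkn1a (A_51_P363947), Cdkn2c and both probes of Cdkn2b and of Ccnd2.

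Ccnd2, a D cyclin that MYC is known to induce, had the lowest p of the members. Its probe A_55_P2917114 (NM_009829) read 1.38, 1.12 and 1.33 in controls and 2.69, 1.96 and 1.98 in knockouts. All knockouts lay above all controls, and knockout replicate 1 was the highest. The difference was 0.93 (SE 0.24, 95% interval 0.36 to 1.49), or 1.90-fold, and the adjusted p in limma was 0.0722. The brighter probe A_52_P53906 read 1.61, 1.31 and 1.42 in controls and 2.84 (an outlier spot, left out of the test), 2.24 and 2.09 in knockouts. It gave a difference of 0.72 (SE 0.18, adjusted p 0.0830, n = 3 controls and 2 knockouts), or 0.95 with the outlier spot kept. The probes thus gave one direction with similar sizes, and each missed the threshold.

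Ccnd1, the D cyclin best known as a Wnt and growth factor target, has 1 probe on the array (A_66_P111562, NM_007631). It read -0.07, 0.66 and 0.87 in controls and 1.24, 1.51 and 1.24 in knockout mice. The knockouts lay close together above all controls, while control replicate 1 lay well below the other controls, a 1.92-fold span among controls against 1.21-fold among knockouts. The difference was 0.84 (SE 0.27, 95% interval 0.20 to 1.48), or 1.79-fold, and the adjusted p in limma was 0.108. Without control replicate 1 it was 0.56, and the groups still did not overlap.

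Ccnd3, the most widely expressed D cyclin, differed least. Its probe A_55_P2041075 read 1.41, 1.58 and 1.63 in controls and 1.69, 1.66 and 1.61 in knockouts, a difference of 0.12 (SE 0.14, 95% interval -0.22 to 0.45). The probe A_55_P2918958 gave -0.02 (SE 0.14, 95% interval -0.36 to 0.32). Their adjusted p in limma was 0.639 and 0.946. The groups overlapped at both probes, and the sign turned under some scalings. Without control replicate 1 the values were 0.05 and -0.09.

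**Figure D2:**
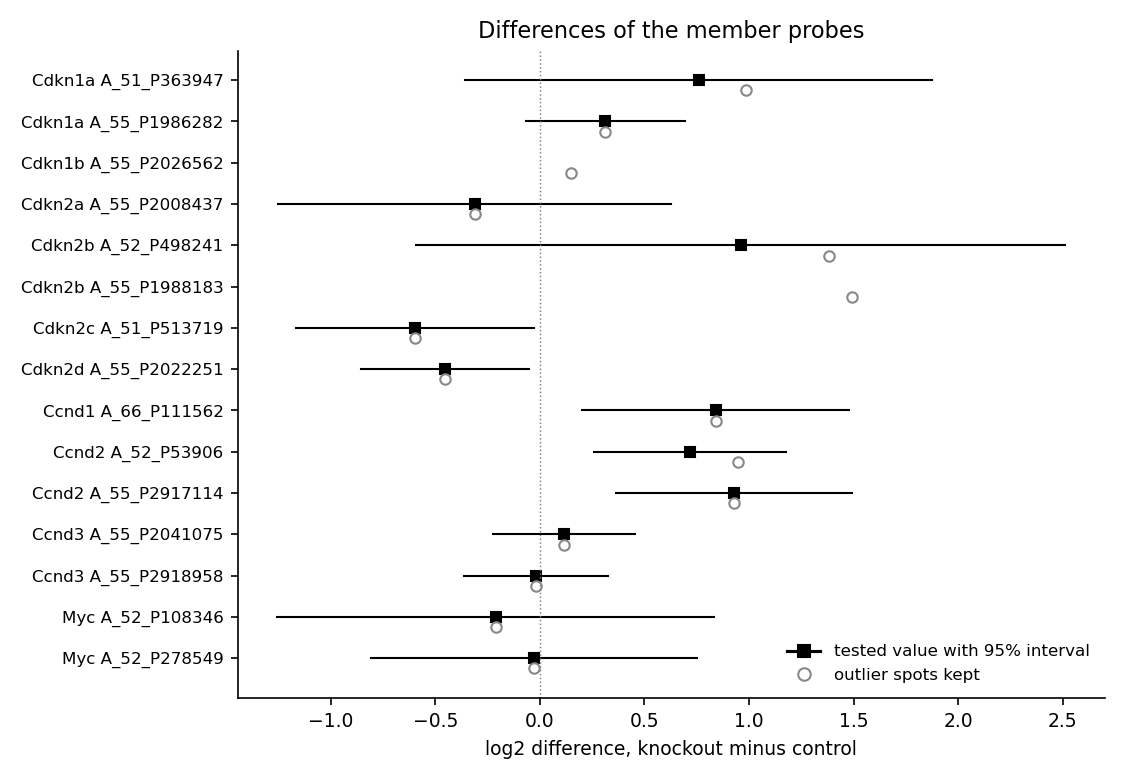
Log2 difference, knockout minus control (x axis), for the 15 member probes above background (y axis); squares are the tested values with 95% intervals from limma and open circles the difference of the means over 3 mice per group with outlier spots kept. The Ccnd1 and Ccnd2 intervals lie above 0 and those of Cdkn2c and Cdkn2d below 0 before adjustment for multiple tests, and the widest interval is that of Cdkn2b, from -0.59 to 2.51.

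Among CIP/KIP inhibitors, Cdkn1a encodes p21, the inhibitor induced by p53 and by differentiation. Its brighter probe A_51_P363947 (NM_007669) read 0.83, -0.46 and -0.50 in controls (the third an outlier spot) and 1.12, 0.45 and 1.25 in knockouts. Control replicate 1 lay within the range of the knockouts, so the groups overlapped. The difference was 0.76 (SE 0.45, adjusted p 0.334 in limma, n = 2 controls and 3 knockouts), or 0.99 with the outlier spot kept. With outlier spots kept and control replicate 1 left out, an alternative chosen after the data were seen, it was 1.42 (SE 0.28) and passed (adjusted p 0.0416). A dimmer probe, which carries the accession of another Cdkn1a transcript (NM_001111099), varied little: it read -2.44, -2.68 and -2.43 in the controls, against -2.04, -2.27 and -2.30 in the knockouts. All its knockout values lay above all its control values, with a difference of 0.31 (SE 0.16, adjusted p 0.258). Cdkn1b encodes p27, which holds resting cells out of the cycle. Its only probe (A_55_P2026562) was an outlier spot on 4 of 6 arrays and could not be tested. With those spots kept it read 1.5, 1.57 and 0.86 in controls and 1.48, 1.37 and 1.52 in knockout mice. The groups overlapped, with a difference of 0.15 (SE 0.22, adjusted p 0.698).

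The INK4 genes had differences of both signs. Cdkn2a and Cdkn2b are neighbours on chromosome 4, Cdkn2c lies elsewhere on that chromosome and Cdkn2d on chromosome 9. None of their tested differences passed, so the signs are uncertain. The upstream sequences of these 4 genes are shown here because the genes share a function, and no link to the values was tested. Each is the 250 bases before an annotated start in RefSeq's GRCm38.p6 set, 5′ to 3′ on the gene's strand (minus for all 6), at chr4:89311033-89311282 for Cdkn2b, chr4:89294620-89294869 and chr4:89282193-89282442 for the upstream and downstream starts of Cdkn2a, chr4:109666757-109667006 and chr4:109665373-109665622 for the upstream and downstream starts of Cdkn2c and chr9:21291210-21291459 for Cdkn2d. Capitals mark matches, on either strand, to GGGCGG (GC box) or TTTCCCGC (E2F type).
Cdkn2b: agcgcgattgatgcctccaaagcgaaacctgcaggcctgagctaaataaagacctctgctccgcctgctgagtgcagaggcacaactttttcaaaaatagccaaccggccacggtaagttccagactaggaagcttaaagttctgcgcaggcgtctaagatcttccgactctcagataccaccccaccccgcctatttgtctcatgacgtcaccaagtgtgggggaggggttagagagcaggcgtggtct
Cdkn2a upstream start: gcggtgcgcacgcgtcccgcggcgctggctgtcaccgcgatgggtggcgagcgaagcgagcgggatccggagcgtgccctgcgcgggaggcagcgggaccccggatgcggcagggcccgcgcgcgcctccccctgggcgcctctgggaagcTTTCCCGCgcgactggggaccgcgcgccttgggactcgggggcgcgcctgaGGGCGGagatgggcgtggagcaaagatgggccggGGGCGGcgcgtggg
Cdkn2a downstream start: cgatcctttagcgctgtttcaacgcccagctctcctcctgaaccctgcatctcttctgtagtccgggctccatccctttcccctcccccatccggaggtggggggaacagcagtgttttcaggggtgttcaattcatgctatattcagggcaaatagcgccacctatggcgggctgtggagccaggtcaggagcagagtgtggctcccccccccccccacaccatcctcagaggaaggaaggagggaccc
Cdkn2c upstream start: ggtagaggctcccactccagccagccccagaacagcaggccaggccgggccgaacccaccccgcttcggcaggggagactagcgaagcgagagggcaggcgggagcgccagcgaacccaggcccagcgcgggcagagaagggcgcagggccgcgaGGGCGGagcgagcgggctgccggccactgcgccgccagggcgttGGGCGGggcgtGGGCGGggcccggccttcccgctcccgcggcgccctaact
Cdkn2c downstream start: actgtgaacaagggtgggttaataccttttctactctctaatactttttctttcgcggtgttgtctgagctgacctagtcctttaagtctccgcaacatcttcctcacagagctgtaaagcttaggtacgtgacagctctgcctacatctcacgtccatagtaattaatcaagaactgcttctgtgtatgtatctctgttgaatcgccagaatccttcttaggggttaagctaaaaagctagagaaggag
Cdkn2d: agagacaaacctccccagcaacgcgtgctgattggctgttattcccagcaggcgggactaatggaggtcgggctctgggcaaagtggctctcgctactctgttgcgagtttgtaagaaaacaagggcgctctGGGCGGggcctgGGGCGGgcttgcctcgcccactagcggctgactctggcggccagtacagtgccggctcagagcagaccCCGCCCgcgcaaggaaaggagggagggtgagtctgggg
The Cdkn2d and upstream Cdkn2c windows hold 3 GC boxes each and the upstream Cdkn2a window 2, while the Cdkn2b window and the downstream windows of Cdkn2a and Cdkn2c hold 0. Starts of one gene thus differ too. A GC box occurs in 32.7% of all 32851 windows that RefSeq's file gives. The upstream Cdkn2a window alone has the E2F-type letters, which 0.895% of all windows hold. None of the 6 windows holds the E-box CACGTG, present in 6.02% of all windows, the letters TATAAA of the core promoter box, present in 12.4%, or the AP-1 site TGACTCA, present in 4.46%. Each was searched on both strands, and no marked matches overlap. The GC content is 53.6% for Cdkn2b, 60% and 78.4% for the downstream and upstream starts of Cdkn2a, 42.8% and 77.2% for those of Cdkn2c and 63.6% for Cdkn2d, against a median of 52.4% over all windows. These are matches of letters and not measured binding.

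Cdkn2b encodes p15, an inhibitor known as a TGF-beta target. Its probe A_52_P498241 read 1.67, -0.56 and 0.39 in controls and 2.73 (an outlier spot), 1.45 and 1.47 in knockouts. Controls spanned 4.67-fold, the widest span within a group among the members, and control replicate 1 lay above 2 of the 3 knockouts. The difference was 0.96 (SE 0.63, adjusted p 0.376 in limma, n = 3 controls and 2 knockouts), or 1.38 with the outlier spot kept. It was 0.43 without control replicate 2 (adjusted p 0.681) and 1.54 without control replicate 1 (adjusted p 0.0715). The second probe (A_55_P1988183), an outlier spot on 3 arrays and therefore not tested, read 1.09, -0.96 and -0.19 in controls and 2.18, 1.11 and 1.15 in knockouts, a difference of 1.49 (SE 0.55, adjusted p 0.141) with all spots kept. With all spots kept and control replicate 1 left out, this probe passed, with a difference of 2.05 (SE 0.41, adjusted p 0.0445), and the first did not, at 1.96 (SE 0.49, adjusted p 0.0641).

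Cdkn2a encodes p16 and, from its upstream start, p19ARF, which stabilises p53. Its signal was near background. The probe A_55_P2008437 (NM_009877) read -5.68, -4.65 and -4.43 in controls and -4.86, -5.04 and -5.79 in knockouts and exceeded background clearly in all 3 control mice but in 2 of the knockout mice. The groups overlapped, with a difference of -0.31 (SE 0.39, 95% interval -1.25 to 0.63, adjusted p 0.646). It ranged from -0.69 without control replicate 1 to -0.07 without control replicate 3 and -0.04 without knockout replicate 3. Both Cdkn2a probes carry one accession, and the transcript form they read cannot be told from the files. Cdkn2a and Cdkn2b have closely related coding sequences, and the probe sequences are not used here, so whether signal crosses between their probes is uncertain.

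Cdkn2c, which encodes p18, and Cdkn2d, which encodes p19INK4d, were lower in the knockouts. Cdkn2c (A_51_P513719) read 0.46, -0.24 and -0.27 in controls and -0.76, -0.43 and -0.65 in knockouts, where control replicate 1 stood above the rest and the groups did not overlap. The difference was -0.60 (SE 0.24, 95% interval -1.17 to -0.03, adjusted p 0.168 in limma), and -0.36 without control replicate 1. Cdkn2d (A_55_P2022251) read 0.58, 0.79 and 0.83 in controls and 0.06, 0.35 and 0.42 in knockouts. All its knockout values lay below all its control values, with a difference of -0.45 (SE 0.17, 95% interval -0.86 to -0.05, adjusted p 0.147), a 1.37-fold lower signal.

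Myc differed mainly from mouse to mouse within the knockout group. The brighter probe A_52_P108346 (NM_010849) read -0.55, -0.13 and 0.04 in controls and -1.17, 0.55 and -0.66 in knockouts. Knockout replicate 2 was the highest of all 6 mice and knockout replicate 1 the lowest, a 3.29-fold span against 1.51-fold among controls. The difference was -0.21 (SE 0.44, 95% interval -1.26 to 0.83, adjusted p 0.790 in limma). The dimmer probe A_52_P278549 read -1.82, -1.39 and -1.24 in controls and -1.98, -0.84 and -1.71 in knockouts, with the same mice highest and lowest, and a difference of -0.03 (SE 0.33, adjusted p 0.964). Left out in turn, knockout replicate 1 turned the sign of the first probe (0.16) and knockout replicate 2 widened it (-0.70).

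Differences between family members were set against each other within each array, as the log2 value of one gene minus that of another, for the 9 pairs that could be formed of 10. The exact two-sided permutation test over 3 against 3 arrays cannot go below 0.1, so no pair could pass. Ccnd1 minus Ccnd3 was -1.05 ± 0.39 for control arrays and -0.32 ± 0.16 for knockout arrays (SD, n = 3 each), a shift of 0.73 with no overlap (exact p = 0.1, 0.6 adjusted over the 9 pairs). Ccnd2 relative to Ccnd3 gave 0.62 (exact p = 0.2, n = 3 controls and 2 knockouts) and 0.83 with outlier spots kept (exact p = 0.1). Ccnd1 and Ccnd2 were not separated from each other, at 0.17 (exact p = 1) and, with outlier spots kept, -0.10 (exact p = 0.6). Cdkn2b relative to Cdkn2c gave 1.49 (exact p = 0.2, n = 3 controls and 2 knockouts) and 1.98 with outlier spots kept (exact p = 0.1). Cdkn2c and Cdkn2d differed from each other by -0.14 (exact p = 0.9), and Cdkn2a relative to Cdkn2b by -1.46 (exact p = 0.4).

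**Figure D3:**
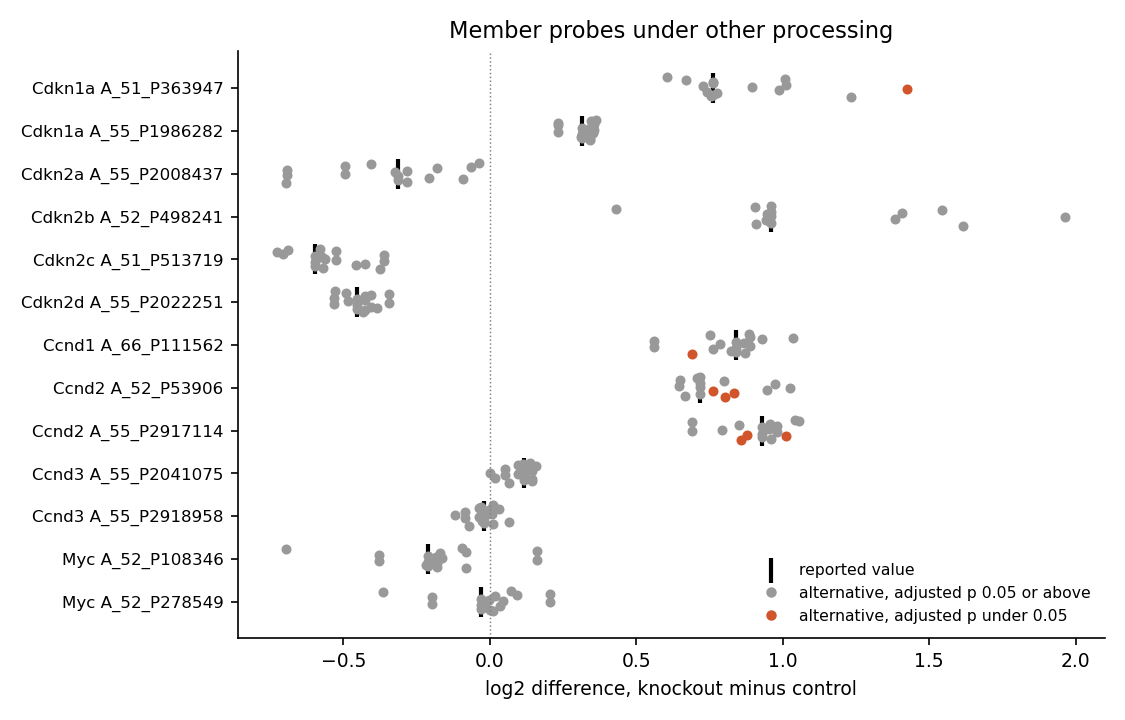
Log2 difference, knockout minus control (x axis), of the 13 tested member probes (y axis) as reported (black bars) and under each alternative that could be fitted (points, in orange where the adjusted p was under 0.05). Orange points appear for Ccnd2, Ccnd1 and Cdkn1a, and points lie on both sides of 0 for Ccnd3 and Myc.

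The calls depended on the processing for the D cyclins. Both Ccnd2 probes passed with array weights (adjusted p 0.0171 and 0.0181 in limma), with normexp background correction before scaling (0.0421 and 0.0420) and with normexp and quantile normalization (0.0457 and 0.0367). These settings called 23%, 7.24% and 7.84% of all probes. Ccnd1 passed with array weights alone (adjusted p 0.0388). With outlier spots kept and control replicate 1 left out, the 2 calls at Cdkn1a and Cdkn2b given above stood against 7.66% of all probes. In the 6 limma fits that left out 1 array alone, 0 member probes were called. Ccnd2 kept a positive difference in every setting that could be fitted. It ranged from 0.65 to 1.03 at A_52_P53906 (15 alternatives) and from 0.69 to 1.05 at A_55_P2917114 (17 alternatives). The first probe could not be fitted without knockout replicate 2 or 3. Leaving out knockout replicate 1 did not change its difference, since that value was already missing. Ccnd1 ranged from 0.56 to 1.03 (17 alternatives).

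Genes that act beside the members were taken from 5 lists. Over the 16451 named genes tested, each by its brightest tested probe, the median difference was 0.01, 51.2% were higher in the knockout and 3.81% were called. Of all tested probes 26.8% had an unadjusted p under 0.05 in limma, so such counts in the lists and markers below are not results by themselves. Of 21 G1/S control genes 17 were tested and 0 were called in limma, 6 with an unadjusted p under 0.05; 13 were lower and 4 higher, with a median of -0.11. Leaving out knockout replicate 2 moved the median to -0.44, leaving out control replicate 1 to -0.35 and leaving out knockout replicate 3 to -0.29. Array weights moved it to -0.33 and called 6 of the 17. Cdk6, a kinase partner of the D cyclins, had means of -0.08 ± 0.066 (controls) and -0.79 ± 0.24 (knockouts; SD, n = 3 each), a difference of -0.71 (SE 0.17, adjusted p 0.0673). Cdk4, the other such kinase, named here for its role after its values were seen, differed by -0.48 (SE 0.16, adjusted p 0.124). The catalytic partner of cyclins E and A, Cdk2, differed by -0.63 (SE 0.21, adjusted p 0.119), whereas the phosphatase gene Cdc25a, which activates CDK2, differed by 0.49 (SE 0.17, adjusted p 0.124). Cdkn1c, which encodes the third CIP/KIP inhibitor p57, differed by 0.10 (SE 0.29, adjusted p 0.851).

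Of 18 genes in the p53 list 12 were tested, 9 lower and 3 higher, with a median of -0.24, and 1 was called. Trp53inp1, a p53 target of cell death and autophagy, fell, from -2.73, -2.77 and -3.20 in controls to -4.38, -4.15 and -3.94 in knockout mice. The groups did not overlap, with a difference of -1.26 (SE 0.20, adjusted p 0.0352 in limma). It was called in 1 of the 6 fits that left out an array (adjusted p 0.0461 without control replicate 1), and missed the threshold without each of the others (0.0555 to 0.109). Plk2, a p53-induced kinase gene, differed by -1.92 (SE 0.43, adjusted p 0.0585) and passed in 6 of 17 alternatives, median centring among them (adjusted p 0.0358). Eda2r, a death receptor gene of the TNF receptor family, differed by -1.17 (SE 0.29, adjusted p 0.0682). Mdm2, the feedback target of p53, differed by -0.01 (SE 0.18, adjusted p 0.973, n = 2 controls and 3 knockouts) and Trp53 itself by -0.61 (SE 0.26, adjusted p 0.192). Mdm2, Trp53 and Cdkn1c were named for their roles after their values were seen.

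MYC works as a dimer with MAX, and MXD proteins compete for that partner. Of 10 partner and rival genes 9 were tested, 4 higher and 5 lower, with 0 called in limma and 4 at an unadjusted p under 0.05. Mlx, which encodes a MAX-like partner of the network, differed by 1.22 (SE 0.22, adjusted p 0.0596, n = 2 each), Mxd1, a rival linked to differentiation, by 1.11 (SE 0.40, adjusted p 0.151, n = 3 controls and 2 knockouts), and Mycn by -1.02 (SE 0.23, adjusted p 0.0613). Mlx passed in 6 of the 13 alternatives that could be fitted and Mycn in 6 of 17: both with array weights (adjusted p 0.0144 and 0.0157), with each normexp setting and without control replicate 1 (0.0481 and 0.0446, and also with outlier spots kept), Mlx with quantile normalization (0.0480) and Mycn with median centring (0.0493). All 15 MYC target genes of ribosome building were tested and 14 were lower (11 with median centring or from the deposited value table), with a median of -0.24 and 0 called in limma, 2 of them at an unadjusted p under 0.05. The 3 with the lowest p were Cad (-0.76, adjusted p 0.115), Srm (-0.59, adjusted p 0.181) and Nolc1 (-0.54, adjusted p 0.202), which serve pyrimidine synthesis, polyamine synthesis and the nucleolus. The summed signal of the 15 genes, in multiples of the array's 75th percentile, was 33.0, 40.5 and 42.5 in controls and 34.9, 38.1 and 33.7 in knockouts, so the groups overlapped; it was lowest in control replicate 1.

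Regulators of the inhibitor genes, such as Polycomb proteins, T-box repressors and FOXO factors, made up the last list. Of 13 genes 12 were tested, 9 lower and 3 higher, with a median of -0.17, and 1 was called. Tbx2, a T-box repressor known to act on Cdkn1a and the Cdkn2a locus, fell from -1.02, -0.56 and -0.97 in controls to -2.92, -2.60 and -2.41 in knockout mice. The groups lay far apart, with a difference of -1.79 (SE 0.21, adjusted p 0.0227 in limma). It was called in 3 of the 6 fits that left out an array, and missed the threshold without control replicate 2 (adjusted p 0.0638), control replicate 3 (0.0629) or knockout replicate 3 (0.0562). Its relative Tbx3 differed by -0.64 (SE 0.21, adjusted p 0.124, n = 3 controls and 2 knockouts) and the Polycomb gene Rnf2 by -0.54 (SE 0.15, adjusted p 0.0826). A dimmer Rnf2 probe was well above background on all control arrays and on no knockout array, so it entered the test through its control values alone. Its call as lower (adjusted p 0.0420 in limma) is therefore no separate support for a lower Rnf2. Its control mean was 1.30-fold above the lowest signal above background on each knockout array, or the probe's own where higher. That lowest signal is taken over all probes and is not the detection limit of this one.

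**Figure D4:**
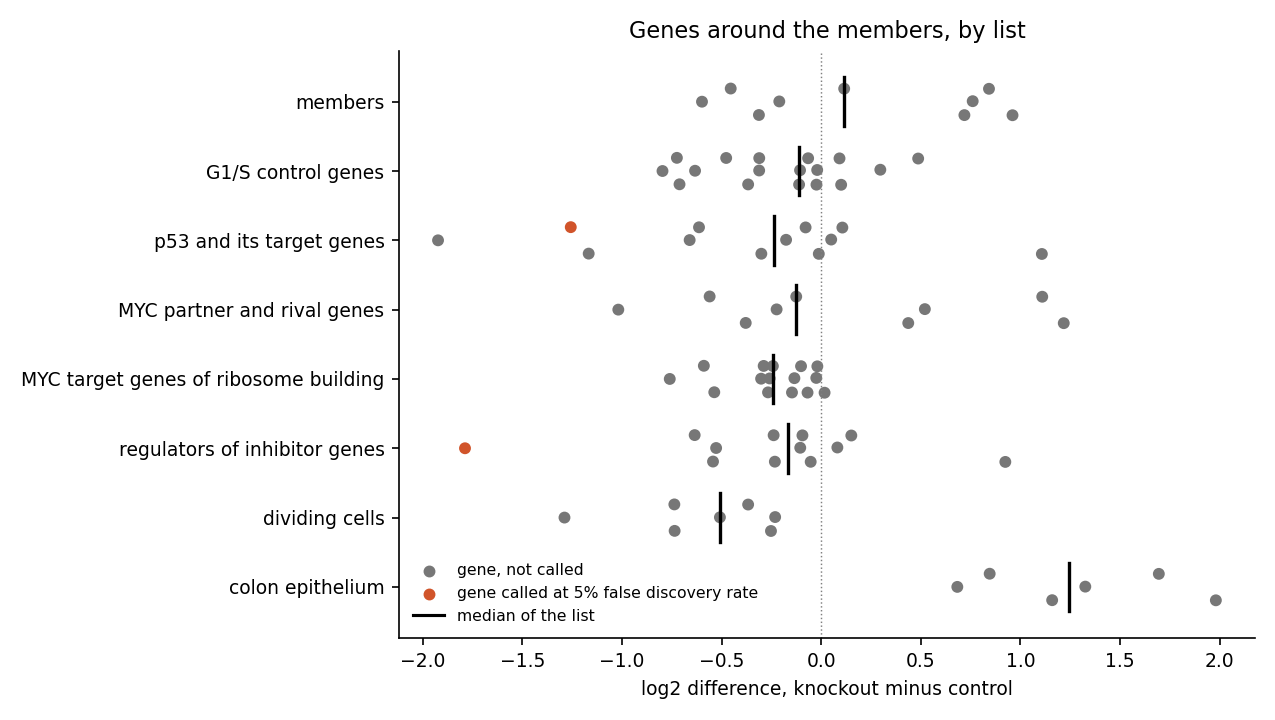
Log2 difference, knockout minus control (x axis), of each tested gene by list (y axis), 1 point per gene at its brightest tested probe, with the median of each list as a black line. Trp53inp1 and Tbx2 are the called genes (orange), 14 of 15 MYC target genes lie below 0 (11 with median centring), and the members spread from -0.60 to 0.96.

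Marker lists moved beside these values. All 6 tested colon epithelium markers were higher in the knockout (0 called in limma, 2 at an unadjusted p under 0.05; median 1.24, but 0.54 without control replicate 2 and 1.95 without knockout replicate 3, over 5 and 3 genes), and their summed signal over 8 genes was 47.5, 14.5 and 36.4 in controls and 74.6, 56.4 and 56.8 in knockouts. Controls thus ranked in the same order for this sum as for both Cdkn2b probes and both Ccnd2 probes, with replicate 1 highest and replicate 2 lowest. Knockout replicate 1 was the highest mouse for the sum and for each of these probes. Other members ranked otherwise: control replicate 1 was the lowest control for Ccnd1, Cdkn2d, both Ccnd3 probes, both Myc probes and the Cdkn2a probe above background. All 7 tested markers of dividing cells were lower (0 called in limma, 1 at an unadjusted p under 0.05; median -0.51), and summed to 9.31, 15.6 and 17.2 in controls and 8.65, 12.9 and 10.4 in knockouts. Their median moved to -1.08 when control replicate 1 was left out and to -0.87 when knockout replicate 2 was. It moved to -0.28 when knockout replicate 1 was left out, and to -0.25 and -0.24 for control replicates 2 and 3. With array weights it was -0.82. Within each group, Ccnd1 and both Myc probes ranked the mice in the same order as the sum for dividing cells. In the sums, control replicate 1 lay within the knockout range for dividing cells, as it did for Cdkn1a (A_51_P363947) and Cdkn2b (A_52_P498241). Neutrophil markers fell in 5 of 6 genes (S100a8, S100a9, Cxcr2, Retnlg and Mmp8), with differences of -1.93 to -4.47, and all 5 were called in limma. The sixth, Csf3r, differed by 0.17. The summed signal of the 6 genes was 19.6 to 20.8 in controls and 9.90 to 10.4 in knockout mice. Csf3r, the brightest of them (means 3.02 in controls and 3.20 in knockouts), made up most of the knockout sum, so the sum understates the fall of the other 5. The fibroblast sum was 33.4 to 40.0 in controls and 22 to 29.8 in knockouts and the endothelial sum 6.36 to 7.47 and 1.39 to 3.78, while the smooth muscle sum was 40.9 to 50.8 and 56.2 to 66.2. Skeletal muscle markers summed to 2.22 to 2.97 in controls and 6.19 to 10.8 in knockouts, with Tnni1 called and the brightest of them in knockouts (mean 2.59, against -1.13 in controls). Squamous epithelium markers summed to 8.28 to 10.6 and 10.3 to 11.6. Most of that sum was Trp63 (means 3.21 and 3.35), since Krt5, Krt14, Krt13 and Krt4 had control means of -4.48 to -3.09. The macrophage sum was 12.7 to 17.8 in controls and 6.96 to 11.7 in knockouts. Sums of B and plasma cells (12.5 to 21.2 against 9.76 to 16.1), T cells (2.45 to 6.14 against 2.25 to 5.52) and enteric neurons and glia (5.94 to 6.59 against 4.97 to 5.76) overlapped or lay nearer each other. Marker genes were named after their values were seen. The part of these cell types in the values of the members was not tested.

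The genes whose pattern over the 6 arrays lay nearest to each member were listed by the root mean square difference of mean-centred log2 values. Outlier spots were kept, and the search covered 16773 named genes above background on all arrays. Nearest to Ccnd1 was LTO1, its neighbour on chromosome 7 in the annotation, at 0.087 (probe A_66_P115863, reading -1.46, -0.82 and -0.51 in controls and -0.32, 0.22 and -0.09 in knockouts). Morn5 and Myh7b followed (0.091 and 0.13). Other LTO1 probes differed by 0.15 and 0.47 between the groups, against 0.87 for this one. Wwp2, Clcn3 and 4921531C22Rik lay nearest to Ccnd2 (0.076 to 0.080), Reep6, Tm6sf2 and Mansc1 to Cdkn2b (0.14 to 0.17), and Mboat2, Tbc1d30 and 4833412C05Rik to Cdkn1a (0.12 to 0.17). Those of Cdkn2d were Nfkb2, Kctd17 and Iqsec3 (0.034 to 0.040), those of Cdkn2c Dnajc10, Brdt and Rgs17 (0.082 to 0.0996), and those of Cdkn2a Adh7, Prss16 and Cdc25b (0.094 to 0.13). Cdkn1b had Tmem30a, Proser1 and Gmeb1 (0.038 to 0.061), Ccnd3 had Ak5, Kmt2b and BC003965 (0.030 to 0.033), and Myc had Cilp, Emid1 and Dhx33 (0.12 to 0.15). A flat member has small distances whatever its match. The root mean square of a member's own values about their mean was 0.089 for Ccnd3, 0.24 for Cdkn1b, 0.52 for Ccnd1 and 1.03 for Cdkn2b. Distances are therefore not comparable between members, and the pattern of Cdkn1b rests largely on outlier spots. These names are a description over 6 arrays.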

How the data were processed

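Agilent Feature Extraction 11.5.1.1 produced the array files (design 074809), per the file headers; the submitters' processing notes name Feature Extraction 10.7. The labels name Cy3, whereas the files hold the red channel alone, which was used. The deposited processed signal is an intensity on a linear scale, background-subtracted and detrended by the authors' software and not scaled between arrays, per the file headers. The deposited value table holds intensities whose log2 values correlated with those of the same array at 0.99998 or more, with column medians of 489 to 825; it is uncentred, and served as an alternative only.

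From each log2 signal the 75th percentile of the array's non-control spots (4910 to 7110 intensity units) was subtracted. Outlier spots were set to missing and spots of a probe averaged. A probe was tested if well above background on all 3 arrays of a group with at least 2 usable values in each group: 35351 of 56605 probes. The test was limma's moderated one (limma 3.58.1, R 4.3.3; lmFit, then eBayes), two-sided and without covariates, at 5% after Benjamini-Hochberg adjustment over all tested probes; the number of arrays limits the precision. On simulated data over 35351 probes for this comparison, 14% of probes changed by 1 on the log2 scale were recovered, 70% of those changed by 2, 82% by 3 and 84% by 4, with 5 false calls of 130. Only 200 probes were changed there, all those of 1 size in the same direction, with normal noise independent between arrays. The real fit called 1403 probes, so the unadjusted p needed for a call was lower in the simulation. Its recovery shares do not carry over to the reported fit.

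Probes were named by RefSeq accession, versions removed, through the GRCm38.p6 annotation (33767 of 56605 probes). The files place probes on mm9, so no probe coordinates are given. Upstream windows come from RefSeq's promoter table, which matched 7 of the 10 genes. The members and gene lists were chosen with earlier results of these data known. Named were all members, pathway-list genes past 5%, the 3 with the lowest p in each of the 5 pathway lists, and the 3 genes nearest in pattern to each member; other names are marked as chosen later.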

Additional observations from a re-analysis of the deposited data

How the results depend on the processing

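The count of called probes over the whole table was 1403. It was 8119 with array weights, 2249 with median centring, 484 with no filter on dim probes, 2558 with normexp and the 75th percentile, 2773 with normexp and quantile normalization, 2185 with quantile normalization and 2274 from the value table. Leaving out 1 array at a time gave 40 (without knockout replicate 3) to 2114 (without control replicate 1); with outlier spots kept, the count was 3185 when control replicate 1 was left out and 378 when knockout replicate 1 was, both chosen after seeing the data. Among calls, 39.1% were higher in the knockout, 50.7% with array weights, 51.1% with normexp and the 75th percentile, 55.1% without control replicate 1 and 10% without knockout replicate 3. Member probes called numbered 3 with array weights, 2 with either normexp setting, 2 with outlier spots kept and without control replicate 1, and 0 in the other settings.

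The sign turned only at Ccnd3 and Myc among the 13 tested member probes. The Ccnd3 probe A_55_P2041075 was at -0.00080 with quantile normalization. The probe A_55_P2918958 was at 0.0099 with median centring, 0.067 with normexp and the 75th percentile and 0.0077 from the value table, and at -0.085 to 0.031 with 1 array left out. The Myc probe A_52_P108346 ranged from -0.70 to 0.16 with 1 array left out and was at 0.16 with outlier spots kept and without knockout replicate 1. The probe A_52_P278549 ranged from -0.36 to 0.20, and was at 0.0092 with array weights, 0.00029 with median centring, 0.033 with normexp and quantile normalization, 0.046 with quantile normalization and 0.20 with outlier spots kept and without knockout replicate 1. The causes were not tested.

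Pairs of family members with no overlap numbered 3 of 9, and 1 (of 4 pairs) to 6 (of 9 pairs) with 1 array left out, fewer pairs being formed without knockout replicate 2 or 3. The 6 came without control replicate 1, where most of them set 2 arrays against 2 (exact permutation p = 0.333). Smaller groups separate more easily, so the larger count is not a clearer separation. The share over other gene pairs was not computed, and these counts are a description only. The pair value turned for Ccnd1 minus Ccnd2 (-0.10 with outlier spots kept, -0.087 with the probe of lowest p, and -0.19 to 0.37 with 1 array left out), Cdkn2a minus Cdkn2c (-0.33 to 0.66), Cdkn2a minus Cdkn2d (-0.16 to 0.49) and Cdkn2c minus Cdkn2d (-0.32 to 0.17). The median of MYC partners and rivals rose above 0 with outlier spots kept (0.01), from the value table (0.04) and without control replicate 1 (0.07, and 0.21 with outlier spots kept as well). Lower MYC target genes numbered 9 of 11 without control replicate 2 or 3, 9 of 12 without knockout replicate 3 and 11 of 15 with median centring or from the value table. No paired analysis was possible because the labels give no replicate numbers shared by the groups.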
